A study of Homo sapiens with 4 samples.

Results

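RRAGD, RRAGC, FLCN, FNIP1, FNIP2, MITF, TFEB, TFE3 and GPNMB were followed through the 4 RNA-Seq libraries of a knockdown of the long non-coding RNA LINC00622 in human melanoma cells. These 9 genes were chosen by symbol, with earlier results of these data known, as the parts of 1 signalling axis and a target gene of it. All 9 were found by name among the 17755 genes of the table. The cells were SK-MEL-28 and A375, both established melanoma cell lines, and each line received a control siRNA (siNC) or an siRNA against LINC00622 (siLINC00622). The cells were in medium without serum for 6 h with the siRNA and then in medium with serum for 24 h. Each of the 4 conditions is 1 library, so within a line no test of the knockdown was possible, and each line is a single model of its kind. The library totals were between 31269923 and 36384819 counts.

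RagC and RagD are small GTPases that pair with RagA or RagB on the surface of the lysosome and bring mTORC1, the kinase complex that links growth to nutrients, to that membrane when amino acids are plentiful. Folliculin, with its partners FNIP1 and FNIP2, makes RagC and RagD hydrolyse GTP, and this form of the Rag dimer holds TFEB and TFE3 at the lysosome, where mTORC1 phosphorylates them and keeps them out of the nucleus. MITF, TFEB and TFE3 belong to the MiT/TFE family of transcription factors, which bind E-boxes in the promoters of lysosomal genes, and MITF is also the main regulator of the pigment cell lineage and is known to drive RRAGD in melanoma.

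The labelled cell type was read from its markers before the genes of the axis. SOX10, a factor that defines the melanocyte lineage, stood between 118 and 153 FPKM (fragments scaled to gene length and library size, as deposited) in the 4 libraries. The summed level of 7 melanocytic markers was 1981 and 2135 FPKM in the siNC and siLINC00622 libraries of SK-MEL-28, and 128 and 161 FPKM in A375. In A375 most of that sum was SOX10, and the pigment genes MLANA and TYR were below 1 FPKM there. Of markers of other cell types, 2 of 6 keratinocyte, 2 of 6 fibroblast, 1 of 5 endothelial and 0 of 5 leukocyte genes were listed in the table. The summed keratinocyte level was 19.1 and 19.4 FPKM in SK-MEL-28 and 32.2 and 32.4 FPKM in A375, nearly the same with siNC and siLINC00622. The fibroblast sum was 9.09 and 9.8 FPKM in SK-MEL-28 and 4.1 and 5.93 FPKM in A375, and the endothelial sum was at most 1.66 FPKM. The part of these markers in the results was not tested. In libraries from whole cultures, a lower share of cells that express a gene and less RNA of it per cell cannot be told apart.

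LINC00622 (ENSG00000260941), the target of the siRNA, had 309 counts with siNC and 135 with siLINC00622 in the SK-MEL-28 cells, and 135 and 86 in the A375 cells. On the scale of the edgeR ratios used below, the siLINC00622 libraries held 43.1% of the siNC level in the SK-MEL-28 cells and 55.7% in the A375 cells. By these values the knockdown was partial in each line. In the edgeR quasi-likelihood fit over all 4 libraries, LINC00622 fell by 1.05 on the log2 scale (SE 0.20, Benjamini-Hochberg adjusted p = 0.11). It was thus not called lower in that fit. The log2 ratios of LINC00622 differed by -0.37 between the lines, SK-MEL-28 minus A375, with a counting interval of -0.86 to 0.12 that held 0. The study designed a pair of siRNAs against LINC00622, and which of them was used for sequencing is not given in the sources used here. They are shown because a seed match of either in a gene of the axis is a property of the reagent. The capitals mark the bases to which positions 2 to 8 of the guide strand pair.
siLINC00622_1: ccctaaagaaaGTGAGAAa
siLINC00622_2: ggcaacctctaATTGACTt
Both siRNAs match the annotated LINC00622 transcript, from its base 555 and from its base 815. The heptamer of the first occurs once in the annotated 3′ UTR of RRAGD and of TFEB, and that of the second occurs in the 3′ UTR of FNIP1 but in none of the other 8. In coding sequence the first has 1 site in each of RRAGD, FNIP1 and FNIP2, and the second has 3 in RRAGD and 1 in MITF. Sites in the 3′ UTR are frequent, as 14.5% and 11.6% of 12408 genes held them there. The share of all genes with a site in coding sequence was not computed, so the coding counts have no background beside them. For each gene only the protein-coding transcript with the longest 3′ UTR was read, which for GPNMB has 618 coding bases. The part of these sites in any value below was not tested.

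RRAGD and RRAGC encode the GTPases themselves. RRAGD (ENSG00000025039) is a gene of chromosome 6, minus strand (chr6:89364636-89412270, GRCh38 as for all positions here). Its level was 19.6 FPKM in the siNC library of SK-MEL-28 and 4.2 FPKM in the siLINC00622 library. In A375 the levels were 3.23 and 1.26 FPKM. The knockdown library was the lower one in both lines, and the level left in SK-MEL-28 after knockdown was still above that of A375 with siNC. In counts, 3313 reads became 731 in SK-MEL-28 and 515 became 234 in A375. The log2 ratio of siLINC00622 over siNC was -2.21 in SK-MEL-28 (95% interval -2.33 to -2.10, for counting error only) and -1.34 in A375 (interval -1.58 to -1.12). These ratios correspond to 21.6% and 39.5% of the siNC level. In the edgeR quasi-likelihood fit over all 4 libraries, with the cell line as a block, RRAGD fell by 1.82 on the log2 scale (SE 0.21, Benjamini-Hochberg adjusted p = 0.048). This call was close to the threshold and was lost under 5 of 8 other settings (adjusted p between 0.088 and 1, the latter without the line as a block), whereas DESeq2 gave an adjusted p of 4.3e-09. RRAGD ranked above 86.7% of the genes of the table in SK-MEL-28 siNC and above 58.1% in SK-MEL-28 siLINC00622. In A375 it went from above 51.2% to above 33.4%.

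RRAGC (ENSG00000116954; chr1:38838198-38859823, minus strand) is the closest relative of RRAGD and occupies the same place in the Rag dimer. Its level was 6.98 and 7 FPKM in SK-MEL-28 and 5.14 and 4.64 FPKM in A375, siNC first. The log2 ratio was 0.02 for SK-MEL-28 (counting interval -0.10 to 0.13) and -0.14 in A375 (interval -0.28 to 0.00), and the fit over both lines gave -0.05 (adjusted p = 0.87). The low RRAGD was therefore not matched by a higher RRAGC. Of the summed FPKM of RRAGC and RRAGD, RRAGD made up 73.8% in SK-MEL-28 siNC (interval 72.5% to 75.1%) and 37.5% after knockdown (interval 35.4% to 39.7%). In A375 the share was 38.6% (interval 36% to 41.3%) and 21.4% (interval 19% to 24%). RRAGD was thus the more abundant of the pair in 1 library of the 4, the siNC library of SK-MEL-28. The share in SK-MEL-28 after knockdown fell within the counting interval of the A375 siNC share. The summed level of both genes went from 26.6 to 11.2 FPKM in SK-MEL-28 and from 8.37 to 5.9 FPKM in A375.

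**Figure D1:**
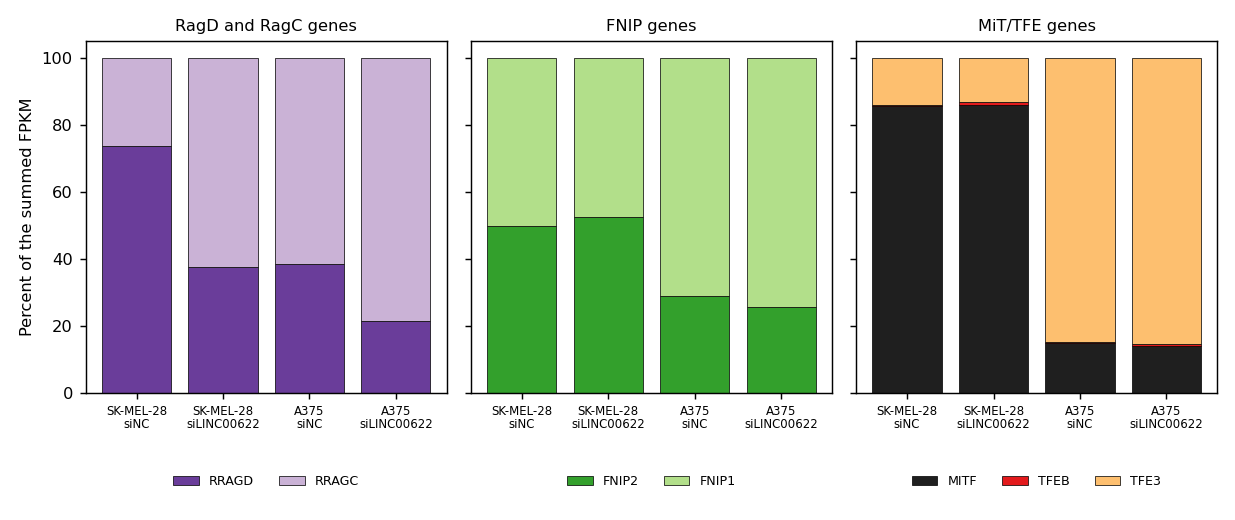
Percent of a summed FPKM taken by RRAGD among RRAGC and RRAGD, by FNIP2 among FNIP1 and FNIP2, and by MITF among the MiT/TFE genes, in each of the 4 libraries. RRAGD went from 73.8% to 37.5% in SK-MEL-28 and from 38.6% to 21.4% in A375, whereas the MITF share stayed near 86% in SK-MEL-28 and near 14% in A375.

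The chromatin immunoprecipitation primers that the study placed at the RRAGD locus are shown because the forward primer holds a motif of the MiT/TFE family. The capitals mark the M-box TCATGTGA, which starts at position 13 of the primer.
RRAGD forward primer: agcagccacgagTCATGTGAtt
RRAGD reverse primer: gtgcctttatggttcaaagtgctt
These primers were made for the transcription factor BTF3. 0 annotated transcripts hold either primer, and their place relative to the RRAGD start was not analysed here. For the other genes, RefSeq promoter windows of GRCh38.p14, each from 250 bases before to 50 bases after a start, were searched on both strands for the E-box CACGTG, for TCACGTGA, which contains it, for the variant CATGTG, and for the M-box TCATGTGA, which contains that variant. Windows were matched for 8 of the 9 genes, 13 windows in all, and RRAGD was not matched. CACGTG occurred in the windows of 2 genes, RRAGC and FNIP1, and for 8.77% of all 27305 genes with a window (7.26% of 35116 windows). TCATGTGA occurred in windows of FNIP2 and GPNMB and for 1.24% of all genes (1% of windows), and CATGTG occurred in the same 2 genes and for 13.4% of all genes (11.1% of windows). TCACGTGA was found for 0 of the 8 genes and for 1.18% of all genes (0.98% of windows). The RRAGC and FNIP1 windows are printed whole because they hold the E-box, here in capitals.
RRAGC promoter, chr1:38859723-38860022, minus strand: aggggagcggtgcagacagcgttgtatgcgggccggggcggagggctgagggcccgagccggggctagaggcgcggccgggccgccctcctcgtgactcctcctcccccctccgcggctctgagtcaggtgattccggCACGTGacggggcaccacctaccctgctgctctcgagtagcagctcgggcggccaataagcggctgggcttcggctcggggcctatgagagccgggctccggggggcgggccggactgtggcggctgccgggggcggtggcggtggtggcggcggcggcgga
FNIP1 promoter, chr5:131796968-131797267, minus strand: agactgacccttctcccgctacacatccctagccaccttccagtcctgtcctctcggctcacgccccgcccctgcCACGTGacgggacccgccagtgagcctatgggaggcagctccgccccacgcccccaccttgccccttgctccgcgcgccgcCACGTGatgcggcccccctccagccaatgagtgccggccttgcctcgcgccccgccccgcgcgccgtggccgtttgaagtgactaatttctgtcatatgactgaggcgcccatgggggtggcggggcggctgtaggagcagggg
The E-box lay 112 bases before the start in RRAGC, and 175 and 94 bases before it in FNIP1. A match is a description of these letters and does not show that a factor binds there.

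Folliculin and its partners came next along the axis. FLCN (ENSG00000154803; chr17:17212212-17237188, minus strand) encodes the GTPase-activating protein for RagC and RagD. Its level was 2.76 and 3.65 FPKM in SK-MEL-28 and 2.24 and 2.58 FPKM in A375. The knockdown library was the higher one in both lines, with log2 ratios of 0.42 (interval 0.29 to 0.54) and 0.21 (interval 0.07 to 0.36). In the fit over both lines the difference was 0.33 (SE 0.11, unadjusted p = 0.021), but the adjusted p was 0.24, so FLCN was not called. FNIP1 (ENSG00000217128; chr5:131641714-131797063, minus strand), a scaffold of folliculin, stood at 11.7 and 12.3 FPKM in SK-MEL-28 and at 4.86 and 5.25 FPKM in A375. Its log2 ratios of 0.08 (interval 0.01 to 0.15) and 0.12 (interval 0.01 to 0.23) were above 0 in each line and small. FNIP2 (ENSG00000052795; chr4:158769138-158908049, plus strand), the paralog with the same role, stood at 11.6 and 13.6 FPKM in SK-MEL-28 and at 1.97 and 1.81 FPKM in A375. Its log2 ratio was 0.24 for SK-MEL-28 (counting interval 0.18 to 0.30) and -0.11 in A375 (interval -0.27 to 0.04). The ratio was thus above 0 in SK-MEL-28, while the interval in A375 held 0. The adjusted p in the fit over both lines was 0.64 for FNIP1 and 0.78 for FNIP2.

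FNIP1 and FNIP2 were at a like level in SK-MEL-28, where FNIP2 made up 49.8% of their sum with siNC (interval 48.7% to 51%) and 52.5% with siLINC00622 (interval 51.4% to 53.6%). FNIP1 was the more abundant in A375, where FNIP2 made up 28.9% (interval 26.9% to 30.8%) and 25.6% (interval 24% to 27.4%). The share moved with the line far more than with the knockdown. Of the promoter windows of FNIP2, the window of an inner start held the M-box on the other strand, 143 bases before the start and in capitals here.
FNIP2, other strand in capitals: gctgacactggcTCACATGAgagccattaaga

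MITF, TFEB and TFE3 are the transcription factors of the axis. MITF (ENSG00000187098; chr3:69739435-69968337, plus strand) stood at 80.1 and 74.9 FPKM in SK-MEL-28 and at 5.29 and 4.95 FPKM in A375. The knockdown library was marginally lower in each line, with log2 ratios of -0.08 (interval -0.11 to -0.05) and -0.09 (interval -0.20 to 0.03). The fit over both lines gave -0.07 (SE 0.08, adjusted p = 0.73). The difference between the lines, 17.1-fold, was the largest of the 9 genes (line log2 4.09, SE 0.09, edgeR adjusted p = 4.6e-07). Counts are per gene, so the melanocyte form of MITF and its other forms were not separated.

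TFE3 (ENSG00000068323; chrX:49028726-49043486, minus strand), which is expressed in most tissues, stood at 13 and 11.5 FPKM in SK-MEL-28 and at 30.2 FPKM in both A375 libraries. It was the only gene of the 9 that was higher in A375, by 2.19-fold (line log2 -1.13, SE 0.10, adjusted p = 7.7e-05). Its knockdown log2 ratio was -0.16 for SK-MEL-28 (counting interval -0.26 to -0.07) and 0.01 in A375 (interval -0.05 to 0.07). TFEB (ENSG00000112561; chr6:41683978-41736259, minus strand), the factor best known for lysosome formation, was the lowest of the 9 in every library. It was counted 70 and 141 times in SK-MEL-28 and 41 and 52 times in A375, which is 0.315, 0.614, 0.195 and 0.213 FPKM. The siLINC00622 library of SK-MEL-28 stood above the other 3 libraries. The log2 ratio was 0.96 for SK-MEL-28 (counting interval 0.56 to 1.41) and 0.13 in A375 (interval -0.49 to 0.76). The A375 interval held 0 and lay below the SK-MEL-28 ratio, so a smaller difference there could not be told from counting error. The fit over both lines gave 0.63 (SE 0.27, adjusted p = 0.35).

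The order of MITF and TFE3 within the family differed between the lines, and their shares moved little with the knockdown. Of the summed FPKM of the 3 factors, MITF made up 85.7% and 86.1% in SK-MEL-28, and TFE3 made up 14% and 13.2%. In A375 MITF made up 14.8% and 14%, and TFE3 84.7% and 85.4%. The leading factor was therefore MITF in SK-MEL-28 and TFE3 in A375, and TFEB was below 1% in the 4 libraries. The TFEB share was 0.337% and 0.705% in SK-MEL-28, siNC first, and 0.546% and 0.601% in A375. The summed level of the 3 genes was 93.4 and 87 FPKM in SK-MEL-28 and 35.7 and 35.4 FPKM in A375. These shares compare genes by deposited length, and by counts that are not per length MITF made up 91.3% and 91.7% of MITF and TFE3 for SK-MEL-28, and 22.9% and 21.8% for A375.

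GPNMB (ENSG00000136235; chr7:23235967-23275108, plus strand) encodes a glycoprotein of melanosomes and lysosomes and is a known target of MITF and TFE3. It was the highest of the 9 in every library, at 199 and 204 FPKM in SK-MEL-28 and at 33.3 and 43.3 FPKM in A375. The log2 ratio was 0.05 for SK-MEL-28 (counting interval 0.03 to 0.07) and 0.39 in A375 (interval 0.34 to 0.44, or 131% of the siNC level). The knockdown library was thus the higher one in A375 by more than counting error, and by a small amount in SK-MEL-28. The fit over both lines gave 0.23 (SE 0.10, adjusted p = 0.38), so GPNMB was not called. Its promoter window is printed because it holds CATGTG on the other strand at 2 places, 1 of them within the M-box, with both matches in capitals.
GPNMB promoter, chr7:23246525-23246824, plus strand: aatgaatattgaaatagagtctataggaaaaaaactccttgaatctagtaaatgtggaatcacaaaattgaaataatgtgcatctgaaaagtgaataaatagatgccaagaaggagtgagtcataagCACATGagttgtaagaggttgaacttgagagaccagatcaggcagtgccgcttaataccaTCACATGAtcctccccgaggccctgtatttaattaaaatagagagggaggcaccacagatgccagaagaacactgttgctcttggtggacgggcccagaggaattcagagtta
The M-box match lay 63 bases before the start and the other match 123 bases before it.

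**Figure D2:**
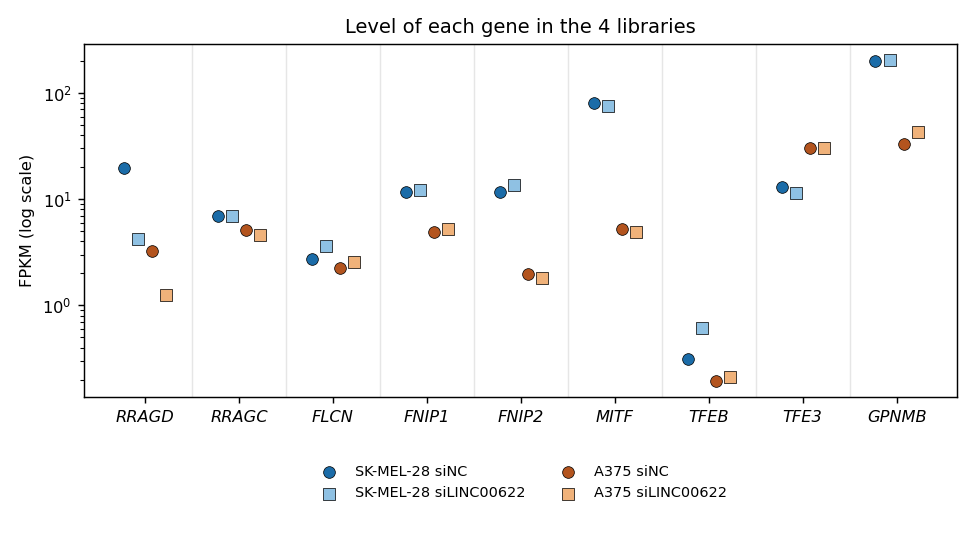
FPKM of the 9 genes in each of the 4 libraries on a log10 axis, as deposited, with 1 point per library. RRAGD is the gene whose siNC and siLINC00622 points lie farthest apart in each line, at 19.6 and 4.2 FPKM in SK-MEL-28 and 3.23 and 1.26 FPKM in A375.

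By level, the order in SK-MEL-28 siNC was GPNMB, MITF, RRAGD, TFE3, FNIP1, FNIP2, RRAGC, FLCN and TFEB. After knockdown RRAGD was the seventh, between RRAGC and FLCN. In A375 siNC the order was GPNMB, TFE3, MITF, RRAGC, FNIP1, RRAGD, FLCN, FNIP2 and TFEB, and RRAGD was the eighth after knockdown. Some neighbours had overlapping ranges over the siNC and siLINC00622 libraries of a line. These ranges span the treatments and are not a spread of replicates. In SK-MEL-28 the ranges of TFE3 (11.5 to 13 FPKM), FNIP1 (11.7 to 12.3 FPKM) and FNIP2 (11.6 to 13.6 FPKM) overlapped, and in A375 those of MITF (4.95 to 5.29 FPKM), FNIP1 (4.86 to 5.25 FPKM) and RRAGC (4.64 to 5.14 FPKM) did. Per-length levels rest on 1 fixed length per gene, between 4.21 kb for TFE3 and 11 kb for FNIP2, in every library.

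The genes over a fold of 1.5 with the knockdown were then counted beside the same count over the whole table. In SK-MEL-28, 1 of the 9 genes was over 1.5-fold lower, RRAGD, where 6.49% of 15442 genes were, and 1 was over 1.5-fold higher, TFEB, where 4.56% of genes were. In A375, 1 was over 1.5-fold lower, again RRAGD, beside 4.34% of 16021 genes, and 0 were over 1.5-fold higher, beside 4.52%. In the fit over both lines 1 of the 9 genes was called lower, RRAGD, where 24 of 16310 genes (0.147%) were. The study had already reported RRAGD as lower in each line from this RNA-Seq. Its place in these counts was thus known beforehand and is not independent evidence. By the edgeR quasi-likelihood test 0 of the 9 were called higher, where 0.0858% of genes were. Of the 8 genes other than RRAGD, 1 had an unadjusted p under 0.05 in that fit, FLCN, and DESeq2 called 0. The median log2 ratio of the 9 genes was 0.05 for SK-MEL-28 and 0.01 for A375, beside 0.00 over all genes tested in each line.

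**Figure D3:**
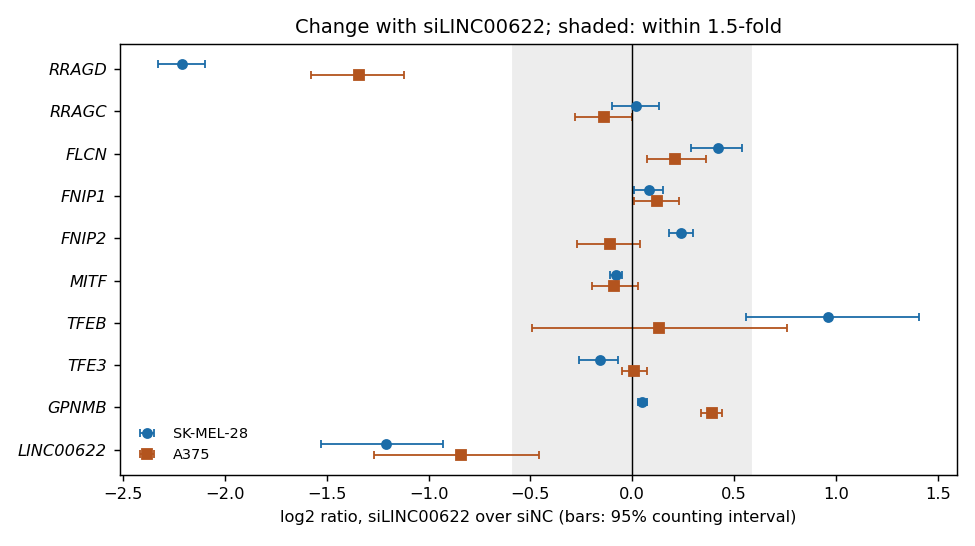
Log2 ratio of siLINC00622 over siNC for LINC00622 and the 9 genes in SK-MEL-28 and A375, with 95% intervals for counting error and the range within 1.5-fold marked. RRAGD lies at -2.21 and -1.34, below LINC00622 itself at -1.21 and -0.84, while RRAGC, FNIP1, MITF and TFE3 lie within 0.2 of 0 in each line.

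The size of the response was then set side by side in the lines, as the difference of the log2 ratios, SK-MEL-28 minus A375. With 1 library per condition this difference had no test, and its interval covers counting error only. For RRAGD it was -0.87 (interval -1.12 to -0.62), so the ratio was the more negative in SK-MEL-28 by more than counting error. For FNIP2 it was 0.35 (interval 0.19 to 0.51), for TFEB 0.83 (interval 0.11 to 1.55) and for FLCN 0.20 (interval 0.02 to 0.39). These 3 genes had the higher ratio in SK-MEL-28. For GPNMB it was -0.34 (interval -0.39 to -0.29) and for TFE3 -0.17 (interval -0.29 to -0.06). The intervals of RRAGC, FNIP1 and MITF held 0, with differences of 0.16, -0.04 and 0.00.

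Between the lines, 8 of the 9 genes were called higher in SK-MEL-28 by the edgeR quasi-likelihood test, where 34% of 16310 genes were, and 1, TFE3, was called lower, where 34.8% were. This fit used the 2 libraries of each line with the treatment as a term. No source says that the libraries came from separate cultures, and no condition has a replicate. The 1 residual degree of freedom per gene is the difference of the knockdown response between the lines. The test also moderates that difference toward the trend over all genes, with 5.49 prior degrees of freedom, so most of the weight came from other genes. Each p-value of the fit, for line or knockdown, is therefore set against this moderated difference and not against a spread of replicates. Technical variation is part of that difference and was not separated from it. MITF (17.1-fold), FNIP2 (7.49-fold), GPNMB (5.98-fold) and RRAGD (5.21-fold) were over 4-fold higher in SK-MEL-28. These 4 of 9 genes stand beside 8.09% of all genes tested. The adjusted p of these 4 genes was between 4.6e-07 and 8.4e-05. FNIP1 was 2.67-fold higher (adjusted p = 2.4e-05), TFEB 2.5-fold (adjusted p = 0.0044), RRAGC 1.61-fold (adjusted p = 0.0011) and FLCN 1.49-fold (adjusted p = 0.0031). TFEB is the member with fewest counts, and DESeq2 gave it a line difference of 1.30 on the log2 scale with an adjusted p of 0.075.

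The difference between the lines was also read within each treatment, as values with no test. In the siNC libraries RRAGD was 6.86-fold higher in SK-MEL-28, and in the siLINC00622 libraries 3.7-fold. MITF was 17.1-fold and 16.9-fold higher in the same order, and FNIP1 2.72-fold and 2.61-fold. FNIP2 was 6.66-fold and 8.38-fold higher, GPNMB 6.79-fold and 5.28-fold, and TFEB 1.79-fold and 3.14-fold. TFE3 was 2.05-fold and 2.34-fold lower in SK-MEL-28.

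**Figure D4:**
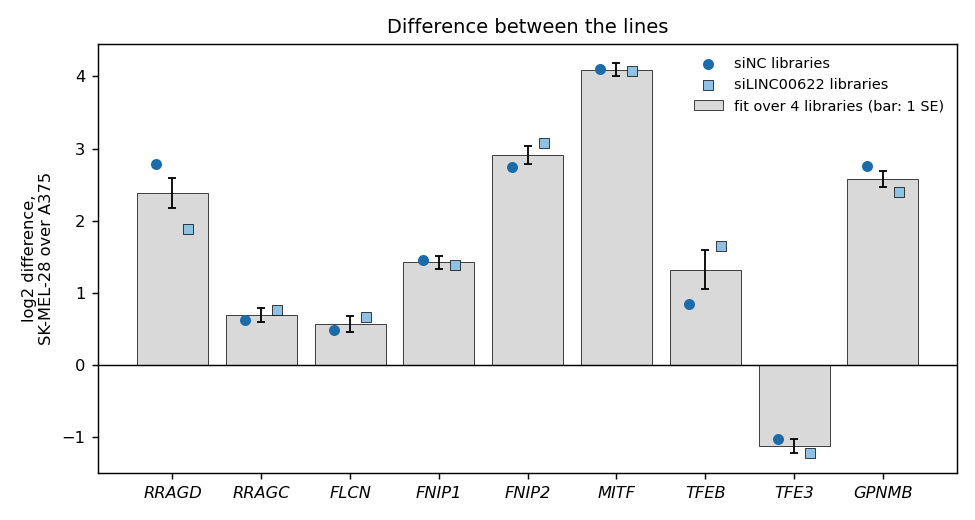
Log2 difference between SK-MEL-28 and A375 for the 9 genes, with the siNC and the siLINC00622 libraries as separate points and the edgeR estimate over 4 libraries with its SE. MITF lies at 4.10 and 4.08, RRAGD at 2.78 with siNC and 1.89 with siLINC00622, and TFE3 is the only gene below 0.

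The 5 genes whose profile over the 4 libraries was nearest to that of RRAGD, by the root mean square difference of centred log2 CPM among 13906 genes, were BTNL9 (0.47), GM2A (0.49), PLEKHF2 (0.51), CYTH3 (0.58) and AFF3 (0.59). They were chosen for this likeness, so their values are a description. GM2A, which encodes the activator protein for the lysosomal breakdown of gangliosides, stood at 31.2 and 12.5 FPKM in SK-MEL-28 and at 9.01 and 5.25 FPKM in A375. PLEKHF2, which encodes a protein of endosomes, stood at 31.2 and 16.4 FPKM in SK-MEL-28 and at 6.1 and 3.72 FPKM in A375. The log2 ratios of GM2A were -1.31 and -0.77, and those of PLEKHF2 -0.91 and -0.70. BTNL9, the nearest, had ratios of -0.90 and -1.46, the latter from 46 and 18 counts (interval -2.44 to -0.75), CYTH3 -0.76 and -0.61, and AFF3 -0.84 and -0.60. The ratios were less negative than those of RRAGD, except that of BTNL9 in A375.

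The other genes of the pathway were read from 7 lists written from general knowledge, with 96 genes in all and MCOLN1 in 2 of them. The 8 partners of RagD on the lysosome (RagA, RagB, the Ragulator subunits and SLC38A9) had a median log2 ratio of 0.09 for SK-MEL-28 and 0.21 for A375, and 0 of 8 were over 1.5-fold either way in either line. The 12 genes of GATOR1, GATOR2 and KICSTOR, which set the nucleotide state of RagA and RagB, had medians of -0.09 and -0.09, again with 0 over 1.5-fold. The 14 genes that act on the localisation of TFEB and TFE3 had medians of 0.04 and -0.03, with 0 over 1.5-fold. Within that fold MTOR was lower, at -0.51 (interval -0.55 to -0.47) in SK-MEL-28 and -0.30 (interval -0.36 to -0.24) in A375. YWHAG went the other way, at 0.44 and 0.27. Both were picked after their values were seen, and neither was called in the edgeR fit over both lines (adjusted p = 0.14 and 0.13). Of the 14 genes, 8 had a ratio above 0 in SK-MEL-28 and 6 in A375, beside 49.5% and 50.7% of all genes tested. Of the 6 AMPK subunits, which sense low energy, 1 was over 1.5-fold higher in SK-MEL-28, PRKAB2, at a log2 ratio of 0.59. The partners of the axis thus stayed within 1.5-fold, apart from PRKAB2, which is named here because it was that count.

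The lysosomal genes of the CLEAR network, which carry the E-box that TFEB, TFE3 and MITF bind, had ratios that were mostly above 0 and small. Their median log2 ratio was 0.20 for SK-MEL-28 and 0.22 for A375, beside 0.00 over all genes. Of the 32 genes, 25 had a ratio above 0 in SK-MEL-28, 28 in A375 and 23 in both, beside 49.5%, 50.7% and 30.9% of all genes tested. In each line 2 of the 32 were over 1.5-fold higher and 0 lower, where 4.56% and 4.52% of all genes were higher, so this count was near the background. ATP6V0D2, a subunit of the proton pump of the lysosome, was counted 397 and 808 times in SK-MEL-28 and 5 and 15 times in A375. Its log2 ratio was 0.99 for SK-MEL-28 (counting interval 0.82 to 1.17) and 1.11 in A375, where the interval of -0.16 to 3.19 held 0. SGSH in SK-MEL-28 (0.59) and WIPI1 in A375 (0.81, interval 0.61 to 1.01) were the others, named after their values were seen. GUSB, a lysosomal enzyme that breaks down glycosaminoglycans and that was also picked after its values were seen, went the other way, with ratios of -0.34 and -0.21. By edgeR 0 of the 32 genes were called in the fit over both lines, although 18 had an unadjusted p under 0.05, beside 14.6% of all genes tested, and DESeq2 called 4, which were ATP6V1A, CTSD, PSAP and WIPI1. The summed level of the list was 1319 and 1559 FPKM in SK-MEL-28 and 601 and 717 FPKM in A375.

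The pigment cell targets of MITF separated the lines most. All 17 were called higher in SK-MEL-28, beside 34% of all genes, with a median line difference of 7.33 on the log2 scale. Their summed level was 2081 and 2425 FPKM in SK-MEL-28 and 42.2 and 43 FPKM in A375. No gene of the table had a mean below 0.25 FPKM. Genes such as TYR (0.21 and 0.233 FPKM in A375) and SLC24A5 (0.0134 and 0.0115) reached that mean only through SK-MEL-28. Their direction was thus fixed beforehand, and the count of 17 is a description. The same holds in other lists for genes below that mean in a single line. SLC24A5, a melanosomal ion exchanger, was counted 1366 and 1529 times in SK-MEL-28 and 2 times in each A375 library. DCT, an enzyme of melanin synthesis, was counted 85233 and 78107 times in SK-MEL-28 and 152 and 171 times in A375. TYR, the rate-limiting enzyme of that pathway, was counted 8952 and 10452 times in SK-MEL-28 and 17 and 22 times in A375. In the fit DCT was 571-fold and TYR 562-fold higher in SK-MEL-28 (adjusted p = 3.8e-07 for each), and SLC24A5 was too low in A375 for a fold to be given. With the knockdown, the list had a median log2 ratio of 0.19 for SK-MEL-28 and 0.01 for A375. TRPM1, the melastatin channel, went from 5411 to 16019 counts in SK-MEL-28, or 1.53 on the log2 scale (interval 1.49 to 1.58), and from 26 to 16 counts in A375, a ratio of -0.83 whose interval of -1.91 to 0.04 held 0. In SK-MEL-28, 2 of the 17 genes were over 1.5-fold higher and 1 lower, beside 4.56% and 6.49% of all genes. In A375 2 of 16 were higher and 3 lower, beside 4.52% and 4.34%, but the 3 lower genes (TYRP1, TRPM1 and BCL2A1) and CAPN3 among the higher ones had at most 26 counts there and intervals that held 0. The other higher gene, TBX2, also named after its values were seen, went from 745 to 1336 counts in A375. Its log2 ratio was 0.63 there (interval 0.50 to 0.76) and 0.03 in SK-MEL-28. CAPN3, which like TYRP1 and BCL2A1 is named after its values were seen, went from 455 to 244 counts in SK-MEL-28. Targets of 1 factor were thus higher and lower in the same library.

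Of the 8 regulators upstream of MITF, 6 were called higher and 1 lower in SK-MEL-28, beside 34% and 34.8% of all genes. The lower one was SOX9, at 11 and 15 counts in SK-MEL-28 and 128 and 138 counts in A375. ZEB2 was 7.81-fold, LEF1 4.78-fold and PAX3 3.16-fold higher in SK-MEL-28, with adjusted p between 4.2e-06 and 2.3e-05. With the knockdown 1 of the 8 was over 1.5-fold higher for SK-MEL-28, BHLHE40 (0.59), and 1 was lower, POU3F2 (-0.89), both named after their values were seen, and 0 were past it for A375. LEF1 and PAX3 had log2 ratios of -0.25 and -0.26 in SK-MEL-28 and of -0.09 and -0.12 in A375. Of the lysosomal list, 26 of 32 genes were called higher in SK-MEL-28 and 3 lower, with a median of 0.94, beside a median of -0.03 over all genes tested. The 6 AMPK genes were all called lower in SK-MEL-28, with a median of -0.86. The Rag and Ragulator list held 4 higher and 2 lower genes, GATOR and KICSTOR 4 and 5, and the localisation list 6 and 3, which are shares nearer to the 34% and 34.8% of all genes. Across the 7 lists the edgeR fit of the knockdown called 0 of 96 genes, with 32 at an unadjusted p under 0.05, beside 14.6% of all genes tested, and DESeq2 called the 4 lysosomal genes named above.

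**Figure D5:**
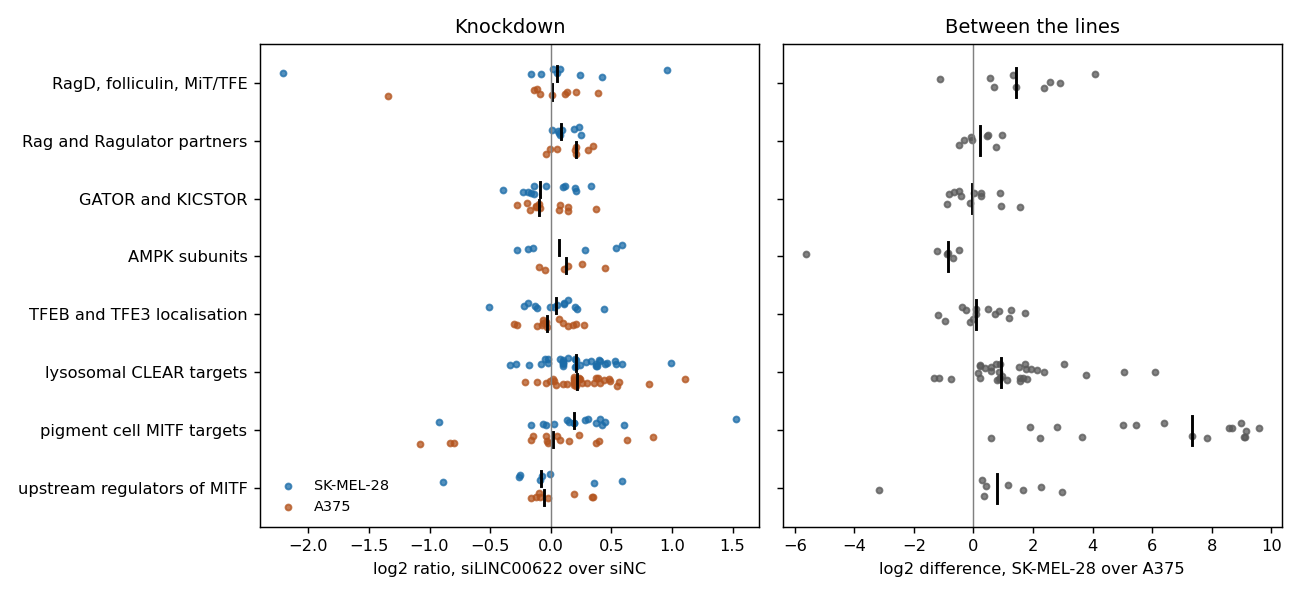
Log2 ratio of siLINC00622 over siNC in each line, and log2 difference between the lines, for the 7 lists and the 9 genes, with the median of each. The median of the lysosomal CLEAR list lies at 0.20 and 0.22 with the knockdown, and that of the pigment cell list at 7.33 between the lines.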

How the data were processed

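Poly(A)-selected RNA of SK-MEL-28 and A375 cells with siNC or siLINC00622 was sequenced as paired-end reads after a library preparation that does not keep the strand, 1 library per condition. The labels' processing notes name HISAT2, HISAT, TopHat2, Bowtie2 and hg19, without versions or roles. The authors deposited 1 table of all libraries. The counts in it are whole numbers of reads per gene, as deposited and without normalization. The deposited CPM values divide each count by the library total. The FPKM values the authors deposited are also divided by gene length, and CPM over FPKM gave the same length for a gene in every library within 0.1% for 17755 genes. The TPM values the authors deposited were used only as an alternative for the shares of 1 gene in a pair. Positions are from GENCODE 29 on GRCh38, matched by Ensembl identifier, and promoters are from RefSeq (GRCh38.p14). siRNA and primer sequences are the study's.

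Within a line, counts were scaled by TMM (edgeR 4.0.16, R 4.3.3), and log2 ratios used a prior count of 2. Genes with 10 or more counts in either library of a line were read against a fold of 1.5. 95% Clopper-Pearson intervals cover counting error only, since reads carry no molecular identifiers, and the difference of 2 ratios has a normal interval on the log scale. Lines and treatments were compared in 1 edgeR quasi-likelihood fit of line and treatment over 4 libraries (at least 10 counts in 2 libraries, 16310 genes, 1 residual degree of freedom, Benjamini-Hochberg adjusted p under 0.05). An SE is the log2 difference over the square root of F. The line is the block: no number in the labels pairs the libraries otherwise. The fit was tested on simulated counts at a dispersion of 0.01, where 93, 197 and 200 of 200 planted changes of 1.5-fold, 2-fold and 4-fold were recovered for the knockdown among 16371 genes, and 97, 195 and 200 for the line among 16007. Unchanged genes called were 4, 8 and 8 for the knockdown and 5, 12 and 10 for the line. Every simulated gene had the same dispersion, and changes were planted only in genes with a mean of at least 50 counts. Each planted fold was the same in both lines or both treatments. In the data the response could differ between the lines, as for RRAGD, so the recovered numbers do not give the detection rate in these data.

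Alternatives were other scalings, filters, prior counts and folds, TPM for the shares, DESeq2 1.42.0, limma 3.58.1 on log2(FPKM + pseudocount), and no block. Calculations outside R used Python 3.11.15. The 9 genes and the lists were chosen with earlier results of these data known. Other genes were named where the fold was over 1.5 the same way in both lines with at least 50 counts, where 2 genes per direction and list were allowed. For the pigment cell targets and the regulators of MITF the 4 genes with the largest line difference were added, and for RRAGD the 5 nearest profiles.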

Additional observations from a re-analysis of the deposited data

How the results depend on the processing

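With 1 library per condition, leaving out a library leaves no residual degree of freedom, so it was not run, and depth limits the low genes, TFEB above all. No called result of the 9 genes changed direction under any alternative run, and TFE3 in A375, at 0.01, moved to the other side of 0 by less than 0.01 with library totals and with FPKM. In SK-MEL-28, 1 of the 9 genes instead of 2 was over the fold with FPKM and a pseudocount of 1 (TFEB 0.30, RRAGD -1.99) or with a fold of 2. In A375, RRAGD was at -0.90 with that pseudocount. Genes over the fold in SK-MEL-28 (704 higher, 1002 lower) numbered 200 and 294 with FPKM and a pseudocount of 1, 278 and 515 with at least 100 counts, and 165 and 266 with a fold of 2, and 1081 were higher without a filter. In A375 (724 higher, 696 lower) they numbered 131 and 171, 320 and 225, and 154 and 134 in the same order, and 1064 were lower without a filter.

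The call of RRAGD across the lines was the only one of the 9 genes, and 0 remained with library totals (adjusted p = 0.089), at least 100 counts (0.088), no replicate block (1) and limma with a pseudocount of 1 (0.11) or 0.1 (0.15). It was kept with DESeq2 size factors (0.044), no filter (0.018) and DESeq2 (4.3e-09). Genes called in that edgeR fit (14 higher, 24 lower) numbered 1 and 0 with library totals, 57 and 64 without a filter, 1 and 0 with at least 100 counts, 0 and 0 without the block, 107 and 122 with DESeq2, 1 and 0 with limma and a pseudocount of 1, and 0 and 0 with 0.1. DESeq2 size factors gave 24 higher. At an unadjusted p under 0.05 there were 2376 genes in the edgeR fit, 2326 with library totals, 2041 with at least 100 counts, 27 without the block, and 2218 and 2236 with limma. Between the lines, library totals moved the median of all genes from -0.029 to -0.201, and 8 of the 9 genes kept their call under every setting tried. TFEB lost it with DESeq2 (adjusted p = 0.075).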
